A study of Schizosaccharomyces pombe with 6 samples.

Results

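The 9 fission yeast genes described here are *mei4*, *crs1*, *spo5*, *rec8*, *rec10*, *meu13*, *bqt1*, *ssm4* and *mcp5*, all known for transcripts that the RNA-binding protein Mmi1 removes during mitotic growth. They were taken by gene identifier, as 9 of the 7268 genes in the count table. The set was drawn up with earlier results of these libraries known. The study itself named *rec10*, *bqt1* and *meu13* among meiotic genes up-regulated in its *Δsaf5* transcriptome, and followed them up. The study sequenced RNA from 3 strains of *Schizosaccharomyces pombe*, with 2 biological replicates of each. It asked how loss of 2 splicing factors affects splicing, and also compared gene expression. The strains were wild type (WT, strain 972), a *saf5* deletion (*Δsaf5*) and a *cwf12* deletion (*Δcwf12*). Saf5 is a factor linked to the making of spliceosomal snRNPs, and Cwf12 is a member of the Prp19 complex of the spliceosome. All 6 cultures were untreated, kept in rich YE5S medium at 30°C and taken at an OD600 of 0.5. In the strain list of the study 972 is h-, the plainest *saf5* deletion is marked with NatR in an h- *leu1-32* strain, and the plainest *cwf12* deletion is marked with KanR in an h+ *leu1-32* strain. Neither the labels nor the methods say which of the listed deletion strains were sequenced.

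Mmi1 carries a YTH domain and binds a short motif, UNAAAC, that is repeated in its target RNAs in regions known as determinants of selective removal. It then hands these RNAs to the nuclear exosome through Red1, Mtl1, Erh1 and other partners, so that genes of meiosis whose transcription leaks in dividing cells yield little mRNA. On entry into meiosis the RNA-binding protein Mei2, together with the noncoding meiRNA, takes Mmi1 away from its targets.

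The study examined the splicing of *mmi1* itself and asked whether changes there go with the accumulation of such transcripts. It reported less Mmi1 protein in *Δsaf5*, an effect nearly abolished when *mmi1* had no introns. By Q-PCR it found normal levels of *rec10*, *bqt1* and *meu13* in *Δsaf5* cells that expressed *mmi1* lacking introns. The comparison made here is whether the 9 genes move together in either deletion. They were not called as a set in either. Of the 9, *rec10*, *meu13* and *bqt1* rose in the *Δsaf5*-labelled libraries, and *meu13* rose in *Δcwf12*. Here and below a gene is called when its adjusted p is below 0.05 and its log2 fold change is 1 or more in either direction. No member was called lower. The other members stayed within a log2 fold change of -0.60 to 0.54 in the *Δsaf5*-labelled libraries, with *spo5* and *rec8* below WT.

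The libraries held between 9113139 and 12054198 counts on genes, and 6018 genes passed the filter on low counts. The deleted gene was checked first. *cwf12* fell from 556 and 531 counts in WT to 41 and 32 in *Δcwf12* (log2 fold change -4.08, adjusted p = 1e-09, edgeR). *saf5* had 323 and 234 counts in WT against 220 and 249 in the *Δsaf5*-labelled libraries, a log2 fold change of -0.33 (SE 0.15, adjusted p = 0.09, edgeR). The counts do not show the loss of *saf5*, and whether the reads on it come from a part of the locus left in the deletion was not tested. Every direction given for *Δsaf5* below is that of the libraries labelled so.

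Over their whole length all 9 members are rich in the motif. TNAAAC, the DNA form of the Mmi1 motif, was searched on the sense strand of each annotated gene, introns included, in the ASM294v3 genome. Matches of this motif cannot overlap each other. The members held 6 to 19 matches each, and their density ran from 4.35 per kilobase in *rec10* to 9.62 in *bqt1*. Over 5106 coding genes the median density was 1.65 per kilobase and the 95th percentile was 3.83. At least 1 match was present in 90.7% of coding genes, so its presence alone sets no gene apart. As many matches per kilobase as in *rec10* were found in 2.90% of coding genes, and as many as in *bqt1* in 0.176%. In coding sequence alone 7 members lay above the 95th percentile of 4.26 per kilobase, while *rec10* at 3.79 and *spo5* at 3.52 lay below it, densities that 7.29% and 8.62% of coding genes reach.

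**Figure D1:**
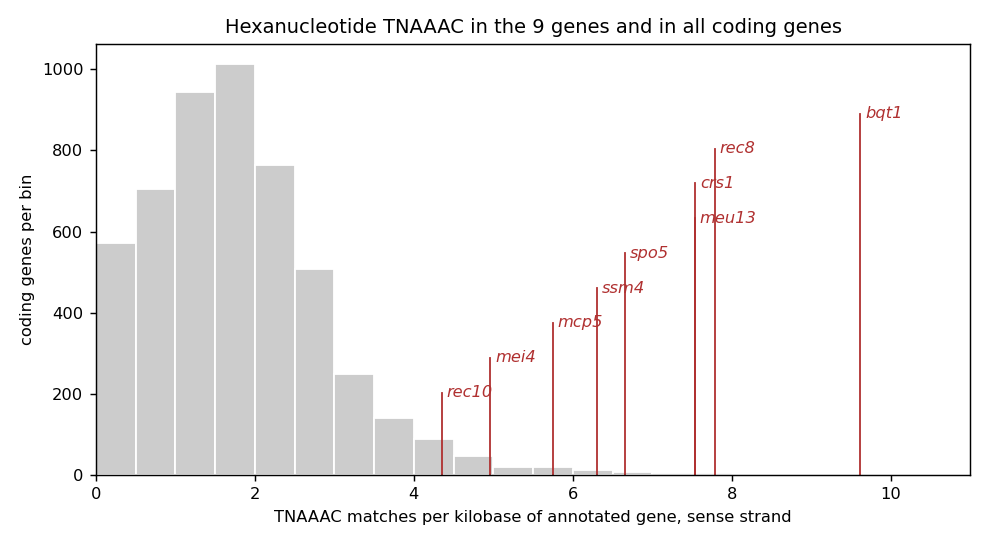
Number of coding genes (y axis) by TNAAAC matches per kilobase of annotated gene on the sense strand (x axis), with the 9 genes as labelled red lines whose height carries no value. All 9 lie to the right of the bulk of genes, from 4.35 per kilobase for *rec10* to 9.62 for *bqt1*.

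The stretch of at most 100 coding bases with the most matches is printed below for 6 of the members. These are the 3 genes that rose in the *Δsaf5*-labelled libraries, *mcp5* and *mei4*, which have the most matches in 1 stretch, and *rec8*, whose fold change in those libraries was the lowest of the 9. Each is the sense strand of the ASM294v3 genome (RefSeq), trimmed to its outermost matches. Capitals mark TNAAAC. *rec10* is at I:4303634-4303709 (minus strand), *meu13* at I:978450-978523 (plus strand), *bqt1* at I:3272570-3272622 (minus strand), *mcp5* at II:899614-899712 (plus strand), *mei4* at II:1473878-1473970 (plus strand) and *rec8* at II:2570136-2570170 (plus strand).
rec10: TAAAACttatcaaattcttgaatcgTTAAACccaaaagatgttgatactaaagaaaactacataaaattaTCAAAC
meu13: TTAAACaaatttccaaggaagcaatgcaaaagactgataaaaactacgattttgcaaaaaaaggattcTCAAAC
bqt1: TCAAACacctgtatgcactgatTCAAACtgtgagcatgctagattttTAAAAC
mcp5: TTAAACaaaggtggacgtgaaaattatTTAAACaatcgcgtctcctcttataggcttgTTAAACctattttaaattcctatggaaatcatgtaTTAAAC
mei4: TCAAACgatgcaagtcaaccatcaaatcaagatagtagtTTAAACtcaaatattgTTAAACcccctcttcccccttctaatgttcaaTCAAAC
rec8: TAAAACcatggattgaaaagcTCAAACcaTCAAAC

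*mei4* and *mcp5* each have 4 matches within such a stretch, which 0.176% of coding genes reach. *crs1*, *spo5*, *rec8*, *rec10*, *bqt1* and *ssm4* have 3, which 2.64% of coding genes reach. *meu13*, the gene with the largest fold change, has 2, which 24.2% of coding genes reach. The 3 genes that rose thus held the lowest (*rec10*) and the highest (*bqt1*) density of the 9 and the thinnest cluster (*meu13*). A match is a run of letters and not a measured binding site.

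The members share little else in structure. They lie on chromosomes I (4 genes) and II (5 genes), 5 of them hold 1 to 4 introns and 4 hold none. Of the genes that rose in the *Δsaf5*-labelled libraries, *rec10* has no intron, *bqt1* has 1 and *meu13* has 4. *crs1* and *rec8* also have 4 introns each and were not called.

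In WT all 9 were low. Divided by gene length, *rec10* had the highest level at 5.16 CPM per kilobase (CPM being counts scaled to library size by TMM), followed by *mei4* at 4.90, *spo5* at 4.12, *bqt1* at 3.43, *crs1* at 3.36, *ssm4* at 3.34, *rec8* at 1.91, *mcp5* at 1.54 and *meu13* at 0.976. The libraries of *rec10* and *mei4* overlapped, as did those of *bqt1*, *crs1* and *ssm4*, so the order within each of these groups is not resolved. The members sat between the 3.28 and 7.9 percentiles of 5066 coding genes, whose median was 37.6 CPM per kilobase. In the *Δsaf5*-labelled libraries the same scale gave 15.4 for *rec10*, 7.77 for *bqt1*, 5.30 for *meu13* and 1.26 for *rec8*, still under the WT median of coding genes. In bulk RNA a rise in a few cells and a smaller rise in every cell cannot be told apart.

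**Figure D2:**
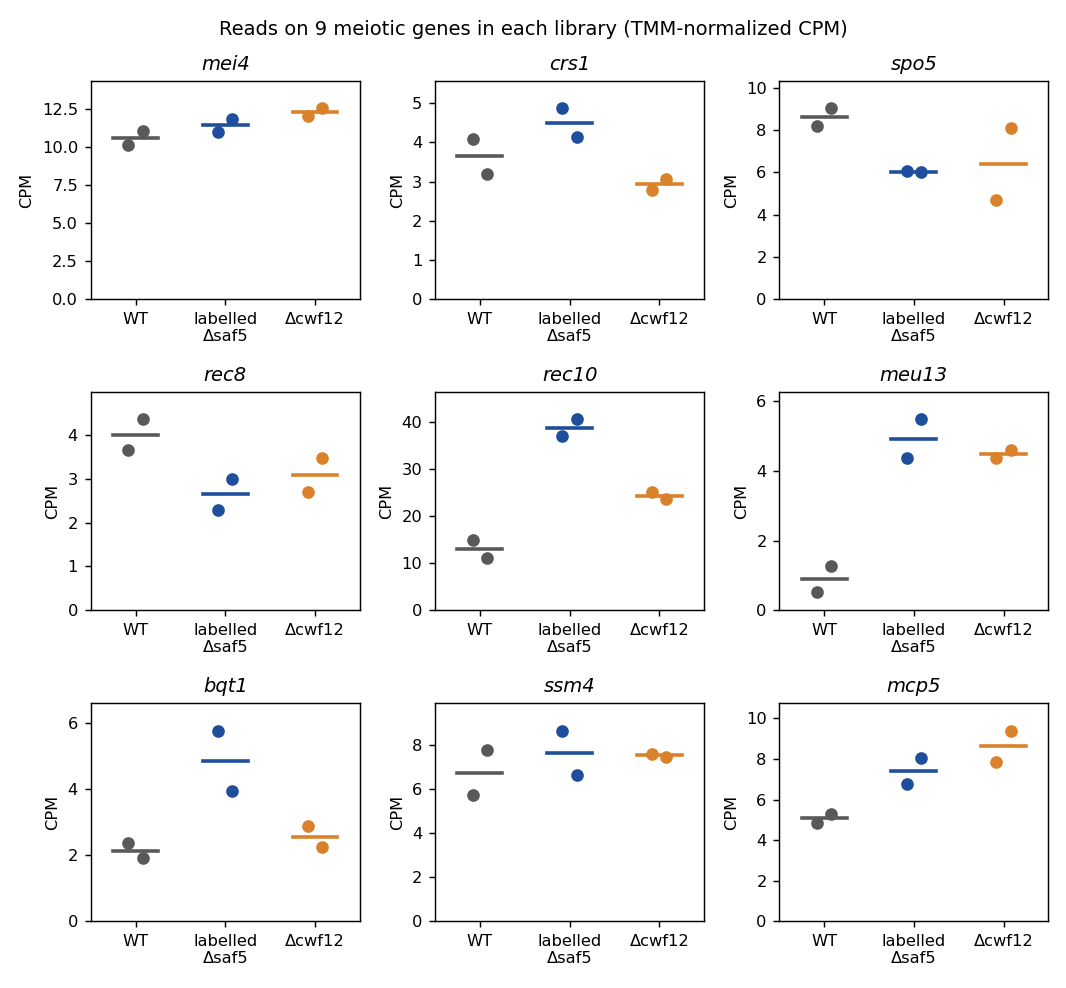
TMM-normalized CPM (y axis, from 0, with its own scale in each panel) of the 9 genes in the WT libraries (grey), the Δsaf5-labelled libraries (blue) and the Δcwf12 libraries (orange). Points are the 2 libraries of each strain and lines their means, and *rec10* stands highest in the Δsaf5-labelled libraries at 37.1 and 40.5 CPM.

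The chromosome axis and pairing genes held the largest changes. *rec10* (SPAC25G10.04c, I:4301367-4303893, minus strand) encodes a protein of the linear elements, the fission yeast form of the meiotic chromosome axis, on which recombination depends. It had 14.9 and 11.2 CPM in WT, 37.1 and 40.5 in the *Δsaf5*-labelled libraries, and 25.1 and 23.6 in *Δcwf12*. The 3 strains did not overlap, with *Δcwf12* between the other two. The log2 fold change was 1.58 (SE 0.14, 95% interval 1.28 to 1.88, adjusted p = 2.8e-06, edgeR) in the *Δsaf5*-labelled libraries and 0.91 (SE 0.14, 0.59 to 1.22, adjusted p = 0.00024, edgeR) in *Δcwf12*. The second value is under the minimum fold and became a call, at 1.13, without WT replicate 1.

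*meu13* (SPAC222.15, I:977709-978637, plus strand) is the Hop2 homologue, which works with Mcp7 (Mnd1 in budding yeast) in the pairing of homologous chromosomes. Its counts were 5 and 12 in WT, 44 and 53 in the *Δsaf5*-labelled libraries, and 50 and 45 in *Δcwf12*. Both deletions were far above WT and overlapped each other. In log2 terms the change was 2.42 (SE 0.36, 95% interval 1.64 to 3.20, adjusted p = 0.00017, edgeR) in the *Δsaf5*-labelled libraries. In *Δcwf12* it was 2.28 (SE 0.36, 1.50 to 3.07, adjusted p = 0.00022, edgeR). Its place is among the highest 0.930% and 0.964% of tested genes, respectively. *meu13* was the only member that passed the filter on low counts through the deletion libraries and not on WT alone, so its entry to the test already favoured a difference.

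*rec8* (SPBC29A10.14, II:2568938-2570993, plus strand) encodes the meiotic cohesin that holds sister chromatids together until the second division. It had 34 and 41 counts in WT, 23 and 29 in the *Δsaf5*-labelled libraries, and 31 and 34 in *Δcwf12*. WT was highest by CPM in both comparisons, without overlap. Neither the log2 fold change of -0.60 in the *Δsaf5*-labelled libraries (SE 0.28, adjusted p = 0.087, edgeR) nor that of -0.39 in *Δcwf12* (SE 0.26, adjusted p = 0.25, edgeR) passed the test.

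The nuclear movement genes were divided. *bqt1* (SPAC6G9.13c, I:3272076-3272699, minus strand) encodes a protein that, with Bqt2, gathers telomeres at the spindle pole body through Sad1 to form the meiotic bouquet. Its counts were 22 and 18 in WT, 58 and 38 in the *Δsaf5*-labelled libraries, and 33 and 22 in *Δcwf12*. WT and *Δcwf12* overlapped by CPM, and both libraries labelled *Δsaf5* were above them. The log2 fold change was 1.18 (SE 0.30, 95% interval 0.53 to 1.82, adjusted p = 0.0058, edgeR) in the *Δsaf5*-labelled libraries and 0.27 (SE 0.33, -0.45 to 0.99, adjusted p = 0.53, edgeR) in *Δcwf12*. Without replicate 1 of the *Δsaf5*-labelled libraries the first value was 0.87 and was no longer called (adjusted p = 0.08, edgeR).

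*ssm4* (SPAC27D7.13c, I:4534674-4536736, minus strand) encodes a dynactin subunit of the p150-Glued type that serves the oscillating movement of the meiotic nucleus. It had 53 and 73 counts in WT, 87 and 64 in the *Δsaf5*-labelled libraries, and 87 and 73 in *Δcwf12*. All 3 strains overlapped by CPM. Its log2 fold changes of 0.18 (SE 0.22, -0.30 to 0.66) and 0.16 (SE 0.22, -0.32 to 0.64) did not pass the test.

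*mcp5* (SPBC216.02, II:898056-901363, plus strand), which anchors dynein at the cell cortex, had 45 and 50 counts in WT, 68 and 78 in the *Δsaf5*-labelled libraries, and 90 and 92 in *Δcwf12*. WT was lowest by CPM and did not overlap either deletion. It was 0.76 higher on the log2 scale in *Δcwf12* (SE 0.21, 0.30 to 1.21, adjusted p = 0.0095, edgeR), which is under the minimum fold, and at 0.54 in the *Δsaf5*-labelled libraries (SE 0.22, 0.07 to 1.01, adjusted p = 0.053, edgeR). Without *Δcwf12* replicate 2 the former was 0.62 and missed the adjusted p (0.10, edgeR).

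Of the regulators of the meiotic divisions and of spore formation, none was called in either deletion. *mei4* (SPBC32H8.11, II:1473068-1475285, plus strand) encodes the forkhead transcription factor of middle meiotic genes. It had 94 and 104 counts in WT, 111 and 115 in the *Δsaf5*-labelled libraries, and 138 and 123 in *Δcwf12*. By CPM the *Δsaf5*-labelled libraries overlapped WT, and *Δcwf12* was above it. Log2 fold changes of 0.11 (SE 0.16, -0.23 to 0.46) and 0.22 (SE 0.16, -0.13 to 0.56) did not pass the test, and the upper ends of both intervals lie under the minimum fold.

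*crs1* (SPBC2G2.09c, II:3452323-3453516, minus strand), a meiosis-specific cyclin, had 38 and 30 counts in WT, 49 and 40 in the *Δsaf5*-labelled libraries, and 32 and 30 in *Δcwf12*. By CPM WT lay between the 2 deletions without overlap. Its log2 fold changes were 0.31 (SE 0.25, -0.23 to 0.85, adjusted p = 0.32, edgeR) and -0.32 (SE 0.26, -0.89 to 0.26, adjusted p = 0.35, edgeR).

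*spo5* (SPBC29A10.02, II:2536150-2538254, plus strand) encodes an RNA-binding protein needed for the second meiotic division and for spores. Its counts were 76 and 85 in WT, 61 and 58 in the *Δsaf5*-labelled libraries, and 54 and 79 in *Δcwf12*. WT was highest by CPM, narrowly so against *Δcwf12* (8.19 and 9.03 against 4.71 and 8.07 CPM). The log2 fold changes of -0.51 (SE 0.24, adjusted p = 0.098, edgeR) and -0.45 (SE 0.24, adjusted p = 0.14, edgeR) did not pass the test.

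**Figure D3:**
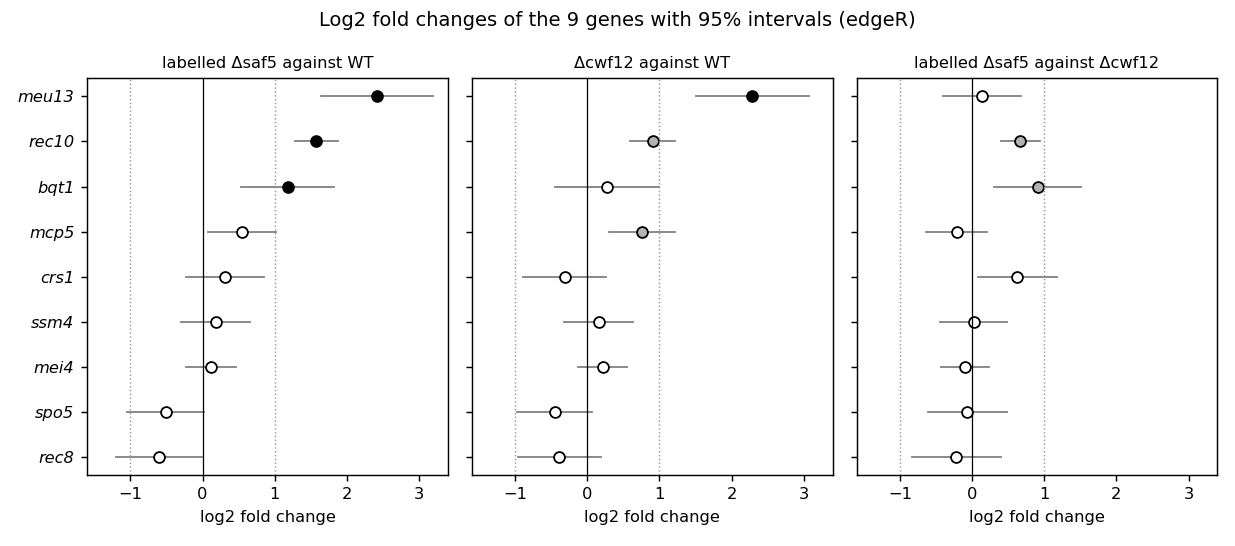
Log2 fold change (x axis) of the 9 genes (y axis, ordered by the change in the Δsaf5-labelled libraries) in the 3 comparisons, with 95% intervals as lines and the fold minimum as dotted lines at 1 and -1. Black points are called, grey points pass the adjusted p alone and white points pass neither, and 3 genes are black in the Δsaf5-labelled libraries against 1 in Δcwf12.

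Set beside all tested genes, 3 of 9 members were called higher in the *Δsaf5*-labelled libraries, where 6.2% of all genes were, and 0 of 9 were called lower, where 2.49% were. The 3 are the genes that the study followed up, so this count is no independent evidence about the set, and the other 6 members gave 0 calls. By the adjusted p alone the counts were again 3 higher and 0 lower, with 24.7% and 25.5% of all genes. In *Δcwf12*, 1 of 9 was called higher (7.31% of all genes) and 0 lower (2.64%). By the adjusted p alone 3 were higher (25.5% of all genes), namely *rec10*, *meu13* and *mcp5*, and 0 were lower (25% of all genes). Among 9 members, 1 gene is 11.1% of the set. The 0 calls lower are edgeR's, DESeq2 also gave 0, and *rec8* in the *Δsaf5*-labelled libraries was the only member lower than WT at an unadjusted edgeR p under 0.05.

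The median log2 fold change of the 9 was 0.31 in the *Δsaf5*-labelled libraries and 0.22 in *Δcwf12*, against 0.02 and -0.00 over all tested genes. Signs were mixed, but not all of them are resolved. In the *Δsaf5*-labelled libraries 7 members lay above 0 and 2 below, and in *Δcwf12* 6 lay above and 3 below. The interval of the fit included 0 for 4 members in the *Δsaf5*-labelled libraries and for 6 in *Δcwf12*. These include *spo5* in the former and all 3 members below 0 in *Δcwf12*, so their signs are not resolved. The WT libraries are shared by both comparisons, so the values of the 2 deletions are not independent of each other. CPM of both libraries labelled *Δsaf5* was above both WT libraries for 5 members and below for 2, where 38.1% and 35.6% of all genes were so placed. In *Δcwf12* the counts were 4 above (38% of all genes) and 3 below (37.8%).

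Some members lay further apart than their errors. In the *Δsaf5*-labelled libraries the 95% intervals of *rec10*, *meu13* and *bqt1* lay wholly above those of *mei4*, *spo5* and *rec8*. Ranked by fold change, 2 of 8 neighbouring pairs differed by more than 2 SE of their difference, *meu13* over *rec10* by 0.84 (SE 0.38) and *mei4* over *spo5* by 0.63 (SE 0.29). The other 6 pairs are not resolved. In *Δcwf12* 1 of 8 pairs was apart by that margin, *meu13* over *rec10* by 1.38 (SE 0.39). The pairs, and the highest and lowest genes set apart above, were picked by ranking the same fold changes. These gaps therefore describe the spread and test nothing. The entry of *meu13* to the test already favoured a difference.

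Summed over the 9 genes, the level was 54.7 ± 0.435 CPM in WT, 88.3 ± 1.98 in the *Δsaf5*-labelled libraries and 72.3 ± 3.16 in *Δcwf12* (SD, n = 2 each). *rec10* alone made up 23.8%, 44.0% and 33.7% of these sums. Without it they were 41.7, 49.5 and 47.9 CPM, so most of the difference in the sum was carried by 1 gene.

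The 2 deletions were then set against each other, a comparison that uses no WT library for its fold change. WT libraries still enter its errors and p-values through the shared estimate of the spread. *bqt1* was higher in the *Δsaf5*-labelled libraries than in *Δcwf12* by 0.91 on the log2 scale (SE 0.28, 95% interval 0.30 to 1.51, adjusted p = 0.015, edgeR) and *rec10* by 0.67 (SE 0.12, 0.40 to 0.94, adjusted p = 7e-04, edgeR). Fitted on these 2 strains alone, the differences were 0.92 for *bqt1* (adjusted p = 0.0022, edgeR) and 0.68 for *rec10* (adjusted p = 6.5e-08, edgeR). Neither reached the minimum fold, so 0 of 9 were called higher (3.95% of all genes) and 0 lower (4.62%). By the adjusted p alone these 2 were higher (25.4% of all genes) and 0 lower (27.8%). *bqt1* passed the minimum fold without replicate 2 of the *Δsaf5*-labelled libraries (1.16) and without *Δcwf12* replicate 1 (1.12). It did not pass the adjusted p without replicate 1 of the *Δsaf5*-labelled libraries (0.60, adjusted p = 0.18, edgeR), without *Δcwf12* replicate 2 (0.77, adjusted p = 0.11, edgeR) or with DESeq2 (adjusted p = 0.077). *crs1* was 0.62 higher (SE 0.25, adjusted p = 0.053, edgeR). *meu13* differed by 0.14 (SE 0.25, -0.41 to 0.68), an interval that leaves room for a change of either sign. CPM of both libraries labelled *Δsaf5* lay above both *Δcwf12* libraries for 3 members and below for 1, each against 40.2% of all genes.

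Motif density and fold change were set side by side for the 9 genes. *bqt1*, the densest, had 1.18 in the *Δsaf5*-labelled libraries, *rec8*, the next, had -0.60, and *rec10*, the least dense, had 1.58. *crs1* and *meu13* had 7.54 matches per kilobase each and were at -0.32 and 2.28 in *Δcwf12*.

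**Figure D4:**
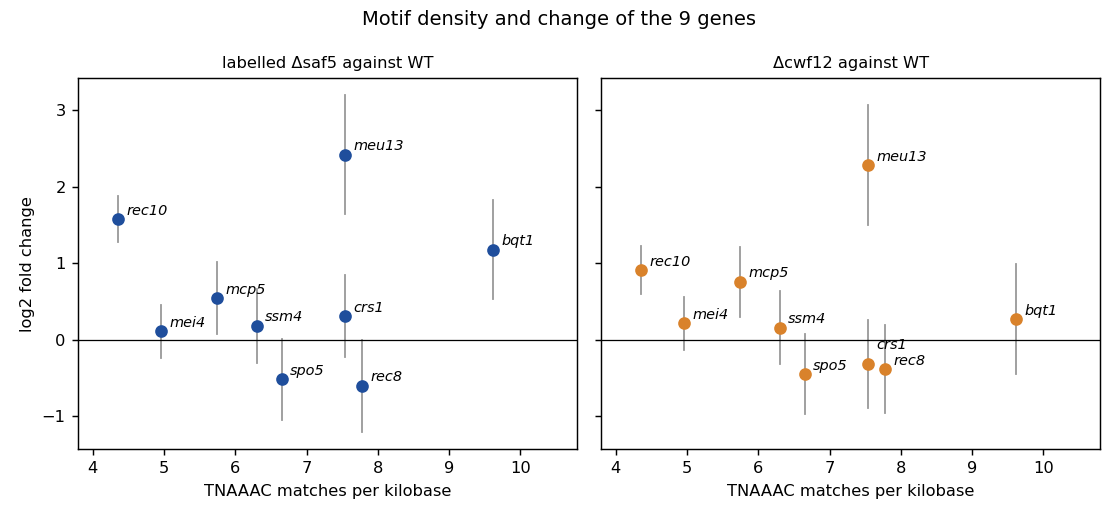
Log2 fold change with its 95% interval (y axis) against TNAAAC matches per kilobase (x axis) for the 9 genes, in the Δsaf5-labelled libraries (left, blue) and in Δcwf12 (right, orange). Genes of like density lie far apart, such as *crs1* and *meu13* at 7.54 matches per kilobase.

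The transcript of *mmi1* itself (SPCC736.12c) had 802 and 813 counts in WT, 855 and 776 in the *Δsaf5*-labelled libraries, and 806 and 695 in *Δcwf12*. By CPM both deletions lay below WT. The log2 fold change was -0.06 (SE 0.07, -0.21 to 0.08, adjusted p = 0.45, edgeR) in the *Δsaf5*-labelled libraries and -0.29 (SE 0.07, -0.44 to -0.14, adjusted p = 0.0036, edgeR) in *Δcwf12*. Counts per gene do not separate spliced from unspliced RNA and do not measure Mmi1 protein, which the study found reduced in *Δsaf5*. Of 12 genes of Mmi1 and its elimination machinery, 0 were called in either deletion, and their log2 fold changes ran from -0.32 to 0.19 in the *Δsaf5*-labelled libraries and from -0.39 to 0.37 in *Δcwf12*. By the adjusted p alone *dis3* (-0.32, the exosome's catalytic subunit), *rmn1* (-0.25) and *rrp6* (-0.18, the nuclear exosome's exonuclease) were lower and *red5* (0.19) was higher in the *Δsaf5*-labelled libraries. In *Δcwf12* *iss10* (-0.39), *mmi1*, *dis3* (-0.21) and *rrp6* (-0.20) were lower and *pab2* (0.37, the nuclear poly(A)-binding protein) was higher. Of the 12 genes, 3 were thus lower and 1 higher in the *Δsaf5*-labelled libraries, where 25.5% and 24.7% of all genes were. For *Δcwf12* the counts were 4 lower and 1 higher, where 25% and 25.5% of all genes were.

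Of the genes of entry into meiosis, 1 was called in opposite directions in the deletions. This was *mei2*, whose product takes Mmi1 away in meiosis. It had 31 and 54 counts in WT, 157 and 149 in the *Δsaf5*-labelled libraries, and 29 and 19 in *Δcwf12*. The libraries labelled *Δsaf5* were highest and *Δcwf12* lowest, without overlap. Its log2 fold changes were 1.77 (SE 0.23, adjusted p = 6e-05, edgeR) and -1.01 (SE 0.31, adjusted p = 0.017, edgeR), and the direct difference was 2.77 (SE 0.25, adjusted p = 2.4e-06, edgeR). The fall in *Δcwf12* was not called without WT replicate 2 (-0.57) or without *Δcwf12* replicate 2 (-0.85), while the direct difference kept its call with each library left out.

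Of 8 tested genes of entry into meiosis, 2 rose and 0 fell in the *Δsaf5*-labelled libraries (*mei2* and *ste4*, 1.12), and 0 rose and 2 fell in *Δcwf12* (*mei2* and *ste11*, -1.03). Of this list 2 genes are 25%. Over all genes 6.2% rose and 2.49% fell in the former, and 7.31% and 2.64% in the latter. Without the minimum fold 4 of the 8 were higher and 0 lower in the former, and 1 was higher and 4 lower in the latter. By that rule 24.7% of all genes were higher and 25.5% lower in the former, and 25.5% and 25% in the latter. *ste4* acts in pheromone signalling, and *ste11* encodes the transcription factor that switches cells to sexual development. The direct comparison called 4 higher and 0 lower in the *Δsaf5*-labelled libraries, where 3.95% and 4.62% of all genes were so called. These 4 were *mei2*, *ste4* (2.12), *ste11* (1.52) and the kinase gene *spk1* (1.09). *ste4* was at 0.91 against WT without WT replicate 2, *ste11* in *Δcwf12* at -0.72 without WT replicate 2 and -0.99 without *Δcwf12* replicate 1, and *spk1* at 0.96 without replicate 2 of the *Δsaf5*-labelled libraries, none of them then called. The noncoding *sme2* was not matched to a row and is not analysed here.

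Of 14 tested partners of the members (axis, cohesin, bouquet and nuclear movement genes), 2 rose and 0 fell in each deletion, or 14.3%, where 6.2% and 7.31% of all genes rose. These were *rec25*, an axis gene that acts with *rec10* (1.32 in the *Δsaf5*-labelled libraries and 1.02 in *Δcwf12*), and *mek1*, a meiotic checkpoint kinase (1.10 and 1.05). The call of *rec25* in *Δcwf12* was lost without WT replicate 1 (0.83) or *Δcwf12* replicate 1 (0.94). That of *mek1* was lost without WT replicate 2 (0.97 and 0.91) and, in *Δcwf12*, without its replicate 2 (0.86). Without the minimum fold 24.7% of all genes were higher and 25.5% lower in the *Δsaf5*-labelled libraries, and 25.5% and 25% in *Δcwf12*. By that rule 4 of the 14 partners were higher and 3 lower in the former, and 3 were higher and 3 lower in the latter. The lowest was *psm3*, a cohesin subunit of dividing and meiotic cells, which had 1012 and 986 counts in WT, 690 and 610 in the *Δsaf5*-labelled libraries and 998 and 818 in *Δcwf12*. Its log2 fold changes were -0.70 (SE 0.07, adjusted p = 1e-05, edgeR) and -0.32 (SE 0.07, adjusted p = 0.0021, edgeR), and it is named after its values were seen.

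Of 9 recombination genes, 3 rose in the *Δsaf5*-labelled libraries, *rec15* (1.80), *mde2* (1.61) and the recombinase gene *dmc1* (1.44), and 1 in *Δcwf12*, *rec15* (1.60). That is 33.3% and 11.1% of the list, where 6.2% and 7.31% of all genes rose. These rest on few reads. *rec15* and *mde2* had 2 to 6 counts in each WT library and *dmc1* had 8 and 10. All 3 passed the filter on low counts through the deletion libraries and not on WT alone, so their entry to the test favoured a difference, and with at least 10 counts in every library the list had 0 called in either deletion. *rec15* and *mde2* lost the call without WT replicate 2 (1.22 and 1.10) and without replicate 1 of the *Δsaf5*-labelled libraries (1.92 and 1.12), and *rec15* also without their replicate 2 (1.67). With DESeq2 none of the 3 was called in the *Δsaf5*-labelled libraries. In *Δcwf12* *rec15* kept its call only without WT replicate 1 (2.57) or *Δcwf12* replicate 1.

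Of 14 tested genes of the meiotic divisions and spores, 3 rose and 1 fell in the *Δsaf5*-labelled libraries, or 21.4% and 7.14%, where 6.2% and 2.49% of all genes did. *meu14*, a gene of the forespore membrane, had 29 and 33 counts in WT against 182 and 184 in those libraries, and its log2 fold change was 2.48 (SE 0.19, adjusted p = 1e-06, edgeR). *mug27*, a kinase gene, was at 3.04, with 6 and 0 counts in WT and a place in the test through the deletion libraries, and the septin gene *spn6* at 1.03. *spo6*, which encodes a partner of the Spo4 kinase, fell to -1.50. The call of *spo6* was lost without WT replicate 1 (-0.95), and that of *spn6* without WT replicate 1 (0.98) or either library labelled *Δsaf5* (0.89 and 1.15). In *Δcwf12* 3 rose (21.4%) and 0 fell, where 7.31% and 2.64% of all genes did. These were *spn5* (2.64), *mug27* (2.19) and *meu14* (1.13), of which *spn5* alone kept its call with each library left out. *meu14* was then at 0.99 without *Δcwf12* replicate 1, and *mug27* at 1.20 without WT replicate 2, 1.88 without *Δcwf12* replicate 2 and 2.19 without replicate 1 of the *Δsaf5*-labelled libraries. In the *Δsaf5*-labelled libraries, *mug27* was at 2.06 without WT replicate 2 and at 7.79 without WT replicate 1.

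**Figure D5:**
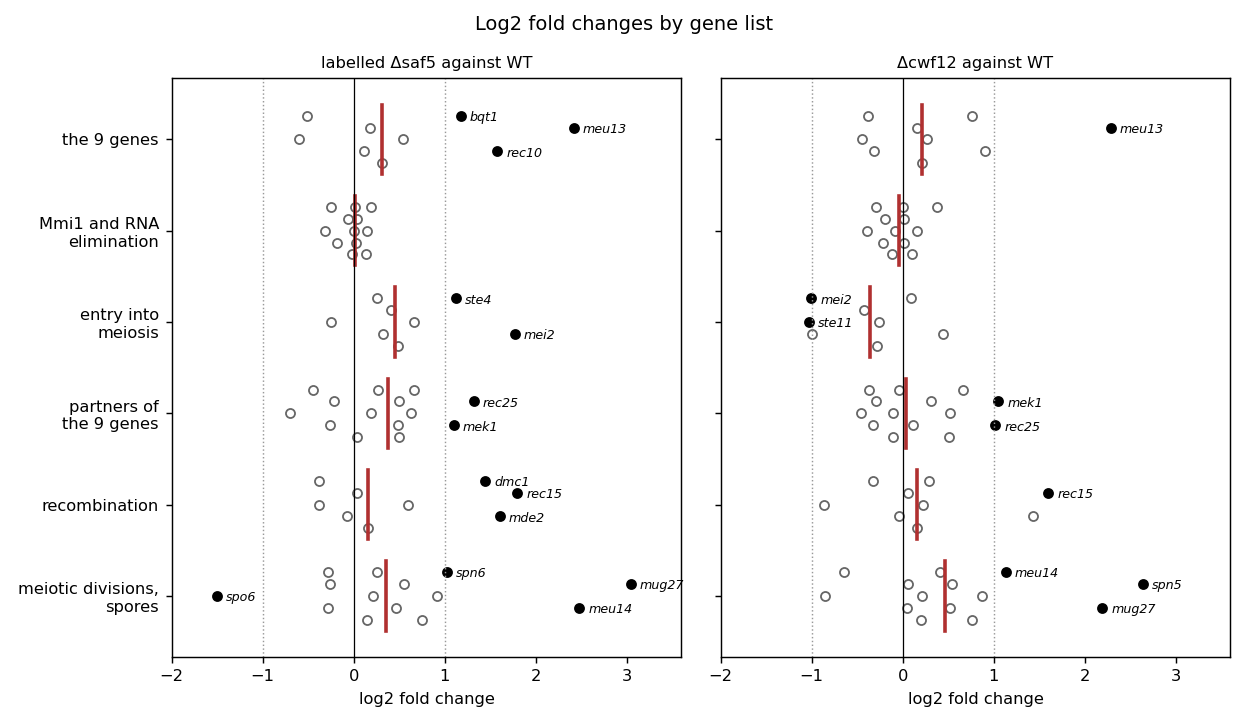
Log2 fold change (x axis) of each tested gene in the 9-gene set and in 5 lists of meiotic genes (y axis, with heights within a list spread for legibility), in the Δsaf5-labelled libraries (left) and in Δcwf12 (right). Black named points are called, open points are not, red lines are medians and dotted lines mark the fold minimum, and most genes of every list lie between the dotted lines.

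Markers of other cell states were read in the same libraries, since mating or sporulating cells would carry meiotic mRNA. None of the markers was at 0 in any library. Over all tested genes 6.2% were called higher and 2.49% lower in the *Δsaf5*-labelled libraries, and 7.31% and 2.64% in *Δcwf12*. The lists hold 4 to 6 markers, so 1 call is a large share of each. The summed level of 5 spore markers ran from 76.4 to 81.7 CPM in WT, from 104.4 to 109.8 in the *Δsaf5*-labelled libraries and from 108.1 to 110.9 in *Δcwf12*. Of these 5, 1 rose (*meu14*) and 1 fell (*spo6*) in the *Δsaf5*-labelled libraries, and 1 rose and 0 fell in *Δcwf12*. The sum of 6 M mating type markers was 95.8 to 98.9 CPM in WT, 140.9 to 143.7 in the *Δsaf5*-labelled libraries and 98.3 to 102.2 in *Δcwf12*, with 3 called higher and 0 lower in the former and 1 higher and 1 lower in the latter. The M markers called in the *Δsaf5*-labelled libraries were the pheromone genes *mfm1* (2.25) and *mfm3* (1.18) and the receptor gene *mam2* (1.47). Of these, *mfm1* had 4 and 2 counts in WT against 14 and 17, and *mfm3* 6 and 6 against 12 and 17. Both passed the filter on low counts through the deletion libraries and not on WT alone, so their entry favoured a difference. In *Δcwf12* the sum hides opposite changes. *mfm2*, another pheromone gene, had 92 and 92 counts in WT, 98 and 98 in the *Δsaf5*-labelled libraries and 7 and 12 in *Δcwf12*, a log2 fold change of -3.44 (SE 0.29, adjusted p = 1.2e-06, edgeR) in the last. *mfm1* was called higher there (1.44, adjusted p = 0.049, edgeR), on 2 to 12 counts, and lost the call with any library left out. *sxa2*, a carboxypeptidase gene, had 274 and 310 counts in WT, 593 and 635 in the *Δsaf5*-labelled libraries and 660 and 548 in *Δcwf12*, and passed the adjusted p but not the minimum fold in both. Its mean rose from 31.2 CPM in WT to 62.3 in the *Δsaf5*-labelled libraries, the largest part of the rise in the M sum there. In the same libraries *mam1* (0.15) and *mfm2* (0.01) did not pass the test. The call of *mfm3* was lost without either WT library, replicate 2 of the *Δsaf5*-labelled libraries (0.88) or *Δcwf12* replicate 1, and with DESeq2 (adjusted p = 0.26). For 4 P mating type markers it was 489.1 to 554.5, 508.5 to 511.4 and 414.9 to 439.7 CPM, with 1 called higher in the *Δsaf5*-labelled libraries and 0 in *Δcwf12*. From 92.9% to 95.7% of that sum was *sxa1*. WT is listed as h-, the M type, yet its P sum lay above its M sum. The P sum therefore does not mark P cells in these libraries. The called gene was *map1*, with 37 and 19 counts in WT, 77 and 83 in the *Δsaf5*-labelled libraries and 33 and 25 in *Δcwf12* (1.43 and -0.14). The mating types of the sequenced deletion strains are not given, so a difference in mating type and an effect of the deletion on these markers cannot be told apart. Their part in the changes of the 9 genes was not tested.

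Overlapping genes bear on some of the counts, since the kit keeps strand but the strand setting of the counting is not given in the sources used here. In the ASM294v3 annotation 6 members lie partly or wholly under antisense noncoding RNAs. The widest overlap with 1 such RNA was 90.4% of *rec8*, 66.7% of *mei4*, 57.1% of *ssm4* and 14.2% of *rec10*, with *meu13* between the last 2, and these RNAs are not analysed here. All of *mcp5* lies under SPNCRNA.1397. It had 147 and 115 counts in WT, 42 and 38 in the *Δsaf5*-labelled libraries, and 108 and 86 in *Δcwf12*, a fall in the former (log2 fold change -1.79, SE 0.21, adjusted p = 2.9e-05, edgeR). In *Δcwf12* its value was -0.62 (SE 0.18, adjusted p = 0.012, edgeR). *bqt1* shares 46.8% of its length with *cfr1* on the other strand, and *crs1* shares 37.2% with *ade9*, which was at -0.59 in the *Δsaf5*-labelled libraries (SE 0.08, adjusted p = 7.4e-05, edgeR). *cfr1* was at -0.09 and -0.24. *mei4*, *spo5* and *rec10* share 5.2%, 6.0% and 1.4% with a coding neighbour. How far reads of these genes enter each other's counts was not tested.

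Finally, the coding gene nearest to each called member by its pair of log2 fold changes against WT was looked up. For *meu13* this was *meu15*, a gene named for higher expression in meiosis (2.38 and 2.34, at a distance of 0.0672). For *rec10* it was *rti1* (1.44 and 0.91, distance 0.132), and for *bqt1* it was SPAC4H3.17 (1.25 and 0.29, distance 0.0741), whose change did not pass the test (adjusted p = 0.072, edgeR). *meu15* had 2 and 2 counts in WT and was not called in the *Δsaf5*-labelled libraries without their replicate 1 (1.89). Like *meu13*, it passed the filter on low counts through the deletion libraries and not on WT alone. The likeness is over 3 strains and 6 libraries only.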

How the data were processed

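RNA was taken by hot phenol, and the libraries were made with a stranded mRNA kit and sequenced in pairs. Per the labels and the methods of the study, reads were trimmed with Trimmomatic, aligned with STAR to ASM294v2 and counted with HTSeq. The deposited table holds whole-number counts per gene, not normalized by the authors, and a gene length, which in most genes with introns matched the gene span. The feature type, strand setting and annotation release are not given in the sources used here.

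Counts of all 6 libraries were fitted together with edgeR 4.0.16 (R 4.3.3) by filterByExpr, TMM, glmQLFit and the quasi-likelihood F-test, with Benjamini-Hochberg adjustment over 6018 genes. Calls required an adjusted p below 0.05 and a log2 fold change of 1 or more in either direction. With 2 biological replicates per strain, the 3 strains share 1 estimate of the spread. The duplicates did not scatter alike. Their chi-square per degree of freedom, given the library totals, was 21.9 in WT, 6.08 in the *Δsaf5*-labelled libraries and 1.99 in *Δcwf12*. The shared estimate does not follow this difference, so errors in comparisons with WT may be too small. Intervals are 95% t intervals of the fit. The code was tested on simulated data before use. Replicate numbers did not pair the samples (correlations of deviations between strains 0.0523, 0.00339 and -0.0147).

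Of 7268 identifiers, 6846 matched a RefSeq gene of ASM294v3, which served for names, positions and motif counts. Each printed sequence has 1 match in that genome. The members and gene lists were chosen with earlier results of these data known. Named genes are the 9 members, *mmi1*, the deleted genes, genes overlapping a member, up to 4 called genes of each list with the largest change, and the nearest gene to each called member. Alternatives were RLE size factors, DESeq2 1.42.0, other count filters, fits of 2 strains, a replicate block, no fold minimum, other motif searches and each library left out.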

Additional observations from a re-analysis of the deposited data

Results flagged for a closer look

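For 2 members the effect of the 2 deletions differed by a direct test of the difference. The log2 fold change of *rec10* was 0.67 higher in the *Δsaf5*-labelled libraries than in *Δcwf12* (SE 0.12, adjusted p = 7e-04, edgeR), with both libraries of the former above both of the latter. That of *bqt1* was 0.91 higher (SE 0.28, adjusted p = 0.015, edgeR), again without overlap, but its adjusted p was 0.18 without replicate 1 of the *Δsaf5*-labelled libraries, 0.11 without *Δcwf12* replicate 2 (edgeR) and 0.077 with DESeq2. That of *rec10* stayed at 0.017 or less with each library left out (edgeR). Neither reached a log2 difference of 1, and the other 7 members had an adjusted p of 0.053 or more in this comparison. With 2 libraries per strain no group was large enough to look for single outlying libraries.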

How the results depend on the processing

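RLE size factors, DESeq2, no filter on low counts, fits of only the 2 strains compared, and the replicate block changed no call of a member (DESeq2 took *bqt1* past an adjusted p of 0.05 in the direct comparison), and 0 members reversed direction under them. With the replicate number as a block, the members called higher stayed at 3, 1 and 0 in the 3 comparisons and their median log2 fold change was 0.31, 0.22 and 0.02. With at least 10 counts in every library *meu13* could not be tested, which left 0 members higher in *Δcwf12*. By the adjusted p alone 3 members were higher in *Δcwf12* and 2 in the direct comparison, and the counts over all genes grew from 373 higher and 150 lower to 1489 and 1534 in the *Δsaf5*-labelled libraries, from 440 and 159 to 1532 and 1502 in *Δcwf12*, and from 238 and 278 to 1526 and 1674 between the deletions. With each library left out in turn, members called higher numbered 2 to 3 in the *Δsaf5*-labelled libraries, 1 to 2 in *Δcwf12* and 0 to 1 in the direct comparison. The median was 0.19 to 0.48, 0.14 to 0.27 and -0.03 to 0.19. Uncalled values near 0 changed sign. *ssm4* ran from -0.0251 to 0.42 in the *Δsaf5*-labelled libraries, from -0.0439 to 0.39 in *Δcwf12* and from -0.18 to 0.20 in the direct comparison, where *meu13* ran from -0.0323 to 0.29 and *spo5* from -0.41 to 0.37. The cause was not tested. Under the block the fall of *mei2* in *Δcwf12* was not called, and with RLE size factors or DESeq2 *ste4* was called lower there as well. In coding sequence alone *spo5* held 3.52 matches per kilobase and *rec10* 3.79. WT counts of 5 to 138 per library limit the precision for every member.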

Other observations

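Other coding genes share the members' motif density, and most were not called in either deletion. This list was drawn up after the data were seen. Of 124 tested genes at least as rich in TNAAAC as *rec10*, 16 were called higher and 2 lower in the *Δsaf5*-labelled libraries, or 12.9% and 1.61%, against 6.2% and 2.49% of all tested genes. In *Δcwf12* 8 were higher and 2 lower, or 6.45% and 1.61%, against 7.31% and 2.64% of all tested genes. The median log2 fold change of these genes was 0.19 and 0.05. Among 36 tested genes in the top percent for density, 5 rose and 0 fell in the *Δsaf5*-labelled libraries (13.9% rose), and 1 rose and 0 fell in *Δcwf12* (2.78%). The largest rises there were those of *dli1*, a light intermediate chain of dynein (29 and 42 counts in WT, 190 and 183 in the *Δsaf5*-labelled libraries, log2 fold change 2.31), and of *jnm1*, a dynactin subunit (22 and 15 counts against 84 and 84, log2 fold change 2.10). Both are named here after their values were seen. In *Δcwf12* they had 73 and 77 counts and 45 and 31 counts, with log2 fold changes of 0.90 and 0.85. In these libraries *ssm4*, the dynactin gene among the members, had a log2 fold change of 0.18 against WT in those labelled *Δsaf5*.

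Genes whose symbol begins with mug or meu, named for higher expression in meiosis, were called higher more often than lower. Of 103 tested, members aside, 26 were higher and 2 lower in the *Δsaf5*-labelled libraries, or 25.2% and 1.94%, and 16 were higher and 2 lower in *Δcwf12*, or 15.5% and 1.94%. Over all tested genes these shares were 6.2% and 2.49%, and 7.31% and 2.64%. Without the minimum fold 44 were higher and 15 lower in the former, and 39 and 21 in the latter. By that rule 24.7% of all tested genes were higher and 25.5% lower in the former, and 25.5% and 25% in the latter. Of the genes called higher, 9 of 26 and 7 of 16 passed the filter on low counts through the deletion libraries and not on WT alone. With at least 10 counts in every library 18 and 9 were called higher. *mug130*, one of those that did not pass on WT alone, had 7 and 8 counts in WT against 109 and 117 in the *Δsaf5*-labelled libraries (log2 fold change 3.82). *meu27*, which did pass on WT alone, had 20 and 10 against 167 and 156 (3.34). In each deletion most genes of the list were not called, with 75 and 85 of 103 short of the adjusted p or the minimum fold.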
